A study of Pleurodeles waltl with 9 samples.

Results

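Of 2353 assembled genes in the dorsal iris of *P. waltl*, the Iberian ribbed newt, 204 (8.67%) had a transcript whose share of the gene's signal separated widely between groups of intact irises, irises at 1 day and irises at 4 days post-lentectomy (dpl). A transcript's share is its value divided by the summed value of all assembled transcripts of its gene in the same library. The rule asked for a transcript whose lowest share in one group lay at least 0.2 above its highest share in another. It looked only at genes with 2 or more transcripts and a gene sum of at least 200 in each of 8 libraries. Of 117020 assembled genes, 110277 had a single assembled transcript, 6743 had 2 or more, and 2353 passed the minimum. The genes were thus chosen by the measured shares of these 8 libraries in all 3 pairs of groups, and their shares are described without support from a test. Tests of shares given further below used the same libraries and pairs.

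Lens removal, or lentectomy, was done surgically on anesthetized newts, and the dorsal iris, the tissue that rebuilds the lens, was taken from 13-month-old animals. The 3 groups were intact irises from eyes without surgery, irises at 1 dpl and irises at 4 dpl, with 3 libraries of poly(A)-selected RNA each. Each library pooled the tissue of 4 animals, so the spread between libraries is a spread between pools. Intact replicate 3, which the study set aside for its alignment rate, took no part in the choice of genes. Per-library totals of the deposited values were 19335182 to 22023433 in the 8 libraries and 17541441 in intact replicate 3, and the table gives no read counts behind them.

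Most animal genes can give several mature transcripts, through other start sites, other splicing of exons or other polyadenylation sites, and the protein or its regulation can differ between them. In newts, pigment epithelial cells of the dorsal iris lose their pigment, re-enter the cell cycle and become lens cells, while the iris also holds stroma, vessels and immune cells. In bulk tissue, fewer cells of a type and less RNA per cell cannot be told apart, nor can a change of isoform within cells from a change in which cells are present. The transcripts were assembled by StringTie from the reads themselves, and their IDs name a gene by number and a transcript by a second number, so that MSTRG.125552.4 belongs to gene MSTRG.125552. Of these IDs, 0 matched the 59059 genes of the RefSeq table for assembly aPleWal1.hap1.20221129. The genes are therefore given by ID with no name, role or sequence, and the tissue could not be checked against marker genes.

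The 204 genes held 1159 transcripts, of which 287 met the rule, and no gene had more than 3 that did. A single transcript met it in 124 genes, a pair did in 77 genes, and MSTRG.125552, MSTRG.72502 and MSTRG.94365 had 3 each. The genes had a median of 5 assembled transcripts (range 2 to 21), compared with 3 (2 to 71) in the 2149 remaining genes that passed the minimum. Genes with exactly 2 transcripts made up 21 of the 204 (10.3%) and 668 of the 2149 (31.1%). A gene with more transcripts offers the rule more chances. Levels were alike in size, with a median gene sum of 727 (269 to 10546) against 662 (222 to 167944). The 204 genes together held 0.932% to 1.23% of the total of each of the 9 libraries.

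For each gene, the leading transcript is the one with the widest gap between the ranges of 2 groups. This gap had a median of 0.268 and ran from 0.201 to 0.710, and it was at least 0.3 in 69 genes, at least 0.4 in 18 and at least 0.5 in 8. Just inside the threshold were MSTRG.70029.1 with a gap of 0.201 and MSTRG.98018.10 with a gap of 0.201. Just outside it were MSTRG.8736.1 with 0.19997 and MSTRG.28149.7 with 0.199. Among the genes left out, 393 had a gap between 0.1 and 0.2, 1258 a smaller gap above 0, and 498 overlapping ranges in every pair of groups.

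The widest gap lay between 4 dpl and intact irises in 102 genes, between 1 dpl and intact irises in 85, and between 4 dpl and 1 dpl in 17. Counting each pair in which the leading transcript met the rule, 105 genes did so at 1 dpl against intact (4.46% of the 2353), 123 at 4 dpl against intact (5.23%) and 29 at 4 dpl against 1 dpl (1.23%). The intact group entered with 2 libraries and the others with 3, and a range over 2 libraries is easier to clear. With intact replicate 3 added, so that each group had 3 libraries, 94 of 2197 genes met the rule, all of them among the 204. By pair, any transcript then met it in 33 genes at 1 dpl against intact, 51 at 4 dpl against intact and 29 at 4 dpl against 1 dpl, compared with 110, 125 and 30 over 8 libraries.

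Over the 8 libraries, leading transcripts had a lower share after lentectomy in more genes than a higher one. This order depended on the intact libraries used. Of the 192 leading transcripts that met the rule in a pair with the intact group, 75 were higher and 117 lower after lentectomy, but intact replicate 3 alone lay at least 0.2 outside the later range in 46 of those higher and 29 of those lower. Among genes whose wider gap in a pair with the intact group lay between 0.1 and 0.2, 163 were higher and 202 lower. Of the 85 genes with the widest gap at 1 dpl against intact, the leading transcript was lower at 1 dpl in 53 and higher in 32. Those lower had a median of the mean shares of 0.144 at 1 dpl against 0.548 in intact irises, and those higher had 0.555 at 1 dpl against 0.126. Of the 102 genes led by 4 dpl against intact, 61 were lower and 41 higher at 4 dpl. Their medians were 0.155 at 4 dpl against 0.542 in intact irises for those lower, and 0.617 against 0.181 for those higher. Between 4 dpl and 1 dpl, 10 leading transcripts were higher at 4 dpl (0.608 against 0.146) and 7 were lower (0.119 against 0.738).

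Over the 3 pairs of groups, the leading transcripts fell into 6 patterns. In 79 genes the rule was met only at 4 dpl against intact, and in 60 only at 1 dpl against intact. A further 36 met it at both time points against intact, always in the same direction, 12 with a higher and 24 with a lower share. Both pairs used the same intact libraries, and opposite directions would also have needed a wide gap between 1 and 4 dpl. The shared direction is thus in part built in. In 9 genes the share at 1 dpl stood apart from both other groups, and in 8 the share at 4 dpl did. The remaining 12 met the rule only between 4 dpl and 1 dpl, and none met it in all 3 pairs. By group means, the share changed in one direction over intact, 1 dpl and 4 dpl in 102 genes, and the 1 dpl mean was the highest or the lowest of the 3 in the other 102. This split was not set beside that of the genes left out. A pattern named after a single pair says where the threshold was passed, not that the other pairs were alike.

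**Figure D1:**
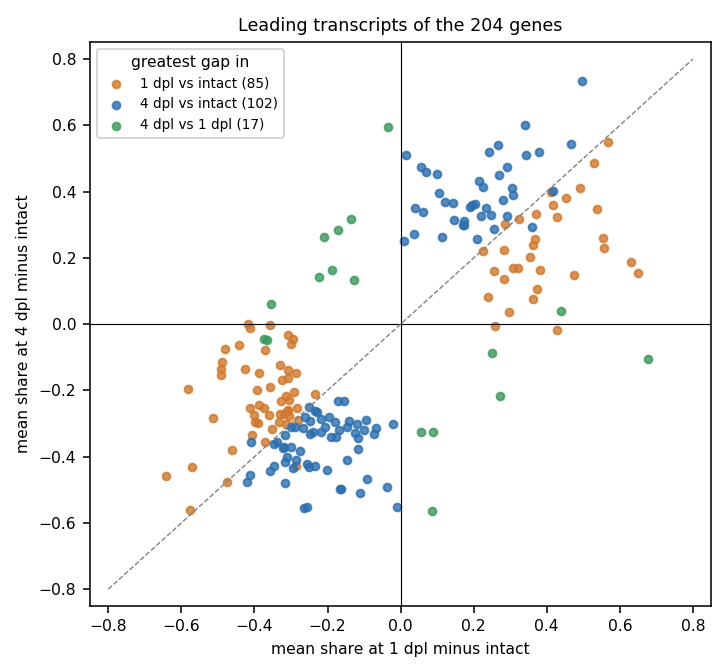
Each point is the leading transcript of 1 of the 204 genes. The x axis is its mean share at 1 dpl minus its mean share in intact irises, the y axis the same for 4 dpl, and colours give the pair of groups with the widest gap (85, 102 and 17 genes). Points on the dashed line had equal mean shares at 1 and 4 dpl. Most points lie in the lower left and upper right, where both time points were on one side of intact irises, and the 4 dpl against 1 dpl genes lie apart from the line. Both axes subtract the same intact mean, which by itself favours those corners.

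Among genes with their widest gap at 1 dpl against intact, the 4 leading transcripts with the greatest gaps all had a higher share at 1 dpl. MSTRG.125552.4, of a gene with 8 assembled transcripts, had shares of 0.0321 and 0.0654 in intact replicates 1 and 2, of 0.722, 0.705 and 0.608 at 1 dpl, and of 0.180, 0.224 and 0.307 at 4 dpl. Its share was high at 1 dpl alone, and the 3 groups did not overlap. Over the 8 libraries, the transcript with the highest mean share was a different one in each group. In intact irises it was MSTRG.125552.3 (0.666 and 0.450), and at 4 dpl it was MSTRG.125552.5 (0.682, 0.657 and 0.318). Intact replicate 3, not counted there, had 0.359 for MSTRG.125552.5 and 0.333 for MSTRG.125552.3, so its highest transcript was that of 4 dpl. The gene sum was 722 and 739 in intact irises, 2065, 1915 and 1968 at 1 dpl, and 2419, 1981 and 1440 at 4 dpl. The summed level was thus higher in every library after lentectomy, while the transcript of highest share differed between 1 and 4 dpl. In 4 dpl replicate 3 the margin was small, 0.318 for MSTRG.125552.5 against 0.307 for MSTRG.125552.4.

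MSTRG.13562.7 had a similar course, with shares of 0.0875 and 0.173 in intact irises, 0.757, 0.691 and 0.892 at 1 dpl, and 0.216, 0.244 and 0.391 at 4 dpl. Its counterpart MSTRG.13562.6 had 0.522 and 0.569 in intact irises, 0.118, 0.125 and 0.0201 at 1 dpl, and 0.611, 0.443 and 0.346 at 4 dpl. The pair of transcripts changed places at 1 dpl, and by group means the second was again the highest at 4 dpl. MSTRG.45892.1 had 0.323 and 0.349 in intact irises, 0.872, 0.846 and 0.953 at 1 dpl, and 0.255, 0.672 and 0.862 at 4 dpl. All 1 dpl libraries were high, whereas the 4 dpl libraries spread from below the intact values to the 1 dpl level. Its gene sum was small, between 276 and 897 over the 8 libraries.

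MSTRG.76115.2 stayed high at both time points, with shares of 0.0783 and 0.183 in intact irises, 0.697, 0.679 and 0.718 at 1 dpl, and 0.773, 0.580 and 0.688 at 4 dpl. No library after lentectomy came near the intact ones, and the ranges at 1 and 4 dpl overlapped. MSTRG.76115.8, which had 0.4997 and 0.410 in intact irises, had 0.163, 0.0544 and 0.00917 at 1 dpl and 0.0202, 0.0855 and 0.0231 at 4 dpl. The gene sum was 1843 and 1759 in intact irises, 1795, 1699 and 1579 at 1 dpl, and 1175, 1210 and 1226 at 4 dpl, so the share at 1 dpl differed while the gene sum was within 1.5-fold.

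**Figure D2:**
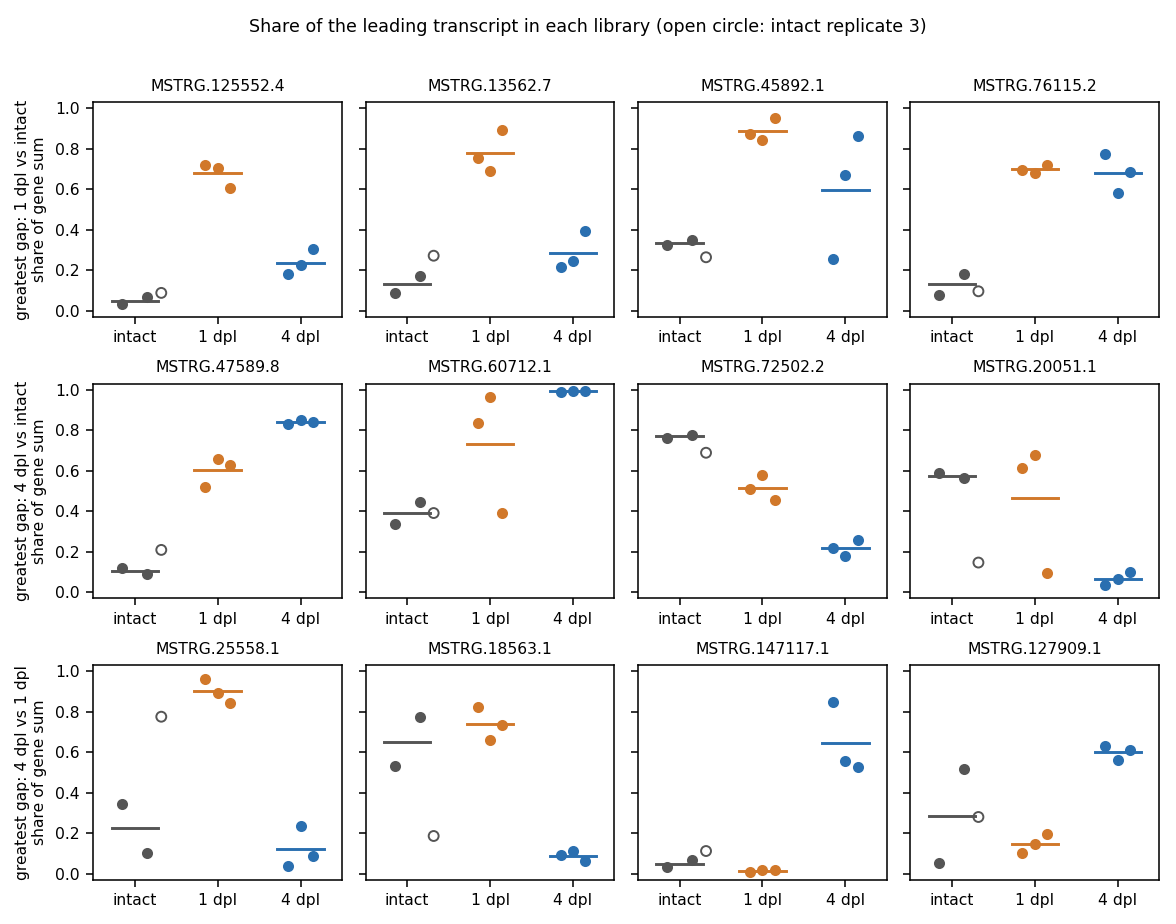
Share of the gene sum (y axis) of 12 leading transcripts in each library, by group on the x axis. Each row shows the 4 greatest gaps among genes whose widest gap lay in that pair of groups, filled circles the 8 libraries the rule used, lines their group means, and open circles intact replicate 3. MSTRG.47589.8 climbs over the 3 groups, MSTRG.76115.2 is high at both 1 and 4 dpl, and the bottom row holds transcripts whose 1 dpl and 4 dpl libraries stand apart.

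Between 4 dpl and intact irises, the widest gap of all 204 genes, 0.710, was that of MSTRG.47589.8. It had shares of 0.121 and 0.0895 in intact irises, 0.520, 0.657 and 0.628 at 1 dpl, and 0.830, 0.849 and 0.841 at 4 dpl. The share was higher at each later time point with no overlap. MSTRG.47589.3 had 0.115, 0.120 and 0.124 at 4 dpl, against 0.645 and 0.631 in intact irises, where it held most of the signal. Summed over the gene, values were 1341 and 718 in intact irises, 568, 1167 and 1037 at 1 dpl, and 5015, 7724 and 5543 at 4 dpl. At 1 dpl the transcript that led had therefore already changed at a gene sum that overlapped the intact one, and the higher sum was seen at 4 dpl. Between 4 dpl and intact irises, the leading transcript's mean value differed by 5.49 on the log2 scale and the summed value of the remaining transcripts by 0.07.

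MSTRG.60712.1 held nearly all of its gene at 4 dpl, with shares of 0.990, 0.996 and 0.993, against 0.337 and 0.445 in intact irises. At 1 dpl the shares were 0.838, 0.964 and 0.391, and replicate 3 there lay within the intact range. The other main transcript, MSTRG.60712.2, had 0.0018, 0.0027 and 0.0051 at 4 dpl, against 0.627 and 0.484 in intact irises. The gene sum was 4910, 9193 and 5209 at 4 dpl, against 1769 and 1272 in intact irises. Its 2 main transcripts thus moved apart in opposite directions, with log2 differences at 4 dpl of 3.46 for MSTRG.60712.1 and of -4.48 for the rest of the gene.

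MSTRG.72502.2 had a lower share at each later time point, 0.764 and 0.776 in intact irises, 0.509, 0.580 and 0.456 at 1 dpl, and 0.215, 0.178 and 0.259 at 4 dpl. Its groups did not overlap, and the loss was shared out among other transcripts of the gene. MSTRG.72502.5 had 0.376, 0.422 and 0.316 at 4 dpl against 0.0717 and 0.108 in intact irises. MSTRG.72502.1 had 0.260, 0.251 and 0.248 at 4 dpl against 0.027 and 0.011. The mean gene sum was 4769 ± 1026 at 4 dpl (SD, n = 3) and 3455 ± 8.15 in intact irises (SD, n = 2).

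In MSTRG.20051 the libraries at 4 dpl did not agree on the transcript of highest share. MSTRG.20051.1 had 0.588 and 0.563 in intact irises, 0.613, 0.680 and 0.0966 at 1 dpl, and 0.0335, 0.0623 and 0.102 at 4 dpl. It was low in all 4 dpl libraries and in 1 dpl replicate 3. At 4 dpl, MSTRG.20051.2 had shares of 0.916 and 0.889 in replicates 1 and 2 and 0.0335 in replicate 3, where MSTRG.20051.3 had 0.865. Its gene sum was 490, 524 and 540 at 4 dpl, against 1594 and 1561 in intact irises. At 1 dpl the sum was already lower, 404, 353 and 421, and in intact replicate 3 it was 682. The value of MSTRG.20051.2 was lower at 4 dpl (449, 466 and 18.1) than in intact irises (624 and 654). That of MSTRG.20051.3 was higher only in 4 dpl replicate 3, with 467 against 32.0 and 27.7 in intact irises.

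Between 4 dpl and 1 dpl, the widest gap was that of MSTRG.25558.1, which has a single assembled counterpart. Its shares were 0.344 and 0.103 in intact irises, 0.964, 0.894 and 0.846 at 1 dpl, and 0.0375, 0.235 and 0.0844 at 4 dpl. The gene was read mostly as this transcript at 1 dpl, and mostly as MSTRG.25558.2 in intact replicates 1 and 2 and at 4 dpl. Intact replicate 3 did not share this, with 0.776 for MSTRG.25558.1. Summed values of the gene were 577 and 562 in intact irises, 1334, 1123 and 599 at 1 dpl, and 1780, 1509 and 1917 at 4 dpl. Here the gene sum was highest at 4 dpl, when MSTRG.25558.1 was at its lowest mean share.

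MSTRG.18563.1 had 0.532 and 0.772 in intact irises, 0.822, 0.658 and 0.734 at 1 dpl, and 0.0937, 0.111 and 0.0618 at 4 dpl. It stood apart at 4 dpl alone, and the intact and 1 dpl ranges overlapped. The mean gene sum was also lower, 451 ± 143 at 4 dpl and 1510 ± 450 at 1 dpl (SD, n = 3 each), and the remaining transcripts together differed by 0.03 on the log2 scale. The signal missing at 4 dpl was thus that of MSTRG.18563.1.

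MSTRG.147117.1 showed the opposite, with shares of 0.0319 and 0.0668 in intact irises, 0.00876, 0.0165 and 0.0166 at 1 dpl, and 0.846, 0.558 and 0.528 at 4 dpl. Its value at 4 dpl was 1929, 1224 and 1225, against 14.1, 26.2 and 26.8 at 1 dpl. The transcript was close to the bottom of its gene until 1 dpl and held over 0.5 of it in every 4 dpl library. The gene sum differed far less, with a mean of 2264 ± 66.0 at 4 dpl and 1604 ± 13.2 at 1 dpl (SD, n = 3 each). MSTRG.127909.1 had 0.631, 0.560 and 0.611 at 4 dpl, against 0.103, 0.144 and 0.198 at 1 dpl. Its intact libraries had 0.0508 and 0.518 and lay on both sides of the 1 dpl range, so intact irises gave no clear starting share for this gene.

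The 3 genes with the highest mean sums had gaps of 0.408, 0.276 and 0.269. MSTRG.43902, with a mean gene sum of 10546 and 10 transcripts, was led by MSTRG.43902.3, with shares of 0.00263 and 0.0216 in intact irises, 0.318, 0.351 and 0.243 at 1 dpl, and 0.554, 0.429 and 0.475 at 4 dpl. The transcript was at most a trace in intact replicates 1 and 2 and the highest by mean at 4 dpl. MSTRG.43902.8 did the reverse, with 0.423 and 0.328 in intact irises, 0.010006, 0.00772 and 0.00812 at 1 dpl, and 0.00212, 0.00328 and 0.00171 at 4 dpl. The gene sum was 5056 and 4921 in intact irises, 8260, 11424 and 11112 at 1 dpl, and 17545, 13286 and 12766 at 4 dpl.

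In MSTRG.32433, MSTRG.32433.3 had the highest mean share in every group, and a secondary transcript gave way. MSTRG.32433.5 had 0.424 and 0.371 in intact irises, 0.107, 0.100 and 0.0826 at 1 dpl, and 0.0807, 0.0852 and 0.0943 at 4 dpl. The time points after lentectomy overlapped and lay far below intact replicates 1 and 2, while intact replicate 3 had 0.245. MSTRG.6432.1 had 0.260 and 0.327 in intact irises, 0.416, 0.430 and 0.472 at 1 dpl, and 0.624, 0.601 and 0.596 at 4 dpl. It took a step at each time point, from the minor to the major transcript of the only 2 that were assembled for its gene, with an SD of at most 0.0476 in a group. Over the 8 libraries, these 3 genes, with the highest sums, had an SD of the leading share of 0.00693 to 0.0631 in any group. Intact replicate 3 was not counted there. It had 0.175 for MSTRG.43902.3, above the other intact libraries, and 0.309 for MSTRG.6432.1, between them.

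A change of share came with a change of the leading place in 154 of the 204 genes (75.5%), in which the transcript of highest mean share was not the same in all 3 groups. This was so in 30.6% of all 2353 genes, and the rule itself favours it. In the pair of groups with the widest gap, the leading transcript was the highest of its gene in the group of its high share but not in the other in 147 genes. It was the highest in both in 30 genes, as a dominant transcript that gained or lost ground, and in neither in 27, as a minor one. Over all 3 groups, the leading transcript had a mean share under 0.1 in one group and over 0.5 in another in 15 genes. The mean share of the leading transcript was under 0.05 in at least 1 group in 21 genes and over 0.8 in 24.

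The share was often exchanged in large part with 1 other transcript, and the fraction was lower than in the genes left out. The transcript that changed most in the opposite direction took up a median of 0.733 of the leading transcript's difference, against 1.00 in the 2149 genes left out. Among genes with at least 3 transcripts, the medians were 0.705 over 183 genes and 0.900 over 1481. It took up at least 0.8 of the difference in 76 of the 204 genes (37.3%), against 71.6% of those left out, which includes by construction every gene with a single counterpart. In 26 genes (12.7%, against 4.65%) it took up less than 0.5, as in MSTRG.98018. There, MSTRG.98018.10 had shares of 0.271, 0.370 and 0.393 at 1 dpl, against 0.0516 and 0.0704 in intact irises, and its closest counterpart took up 0.390 of the difference. The fraction is divided by the leading transcript's difference, which the rule asked to be wide. The 204 genes also had more transcripts, a median of 5 against 3. The comparison with the genes left out is therefore not like for like.

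Values of the leading transcript and of the rest of its gene were set side by side in the pair with the widest gap. In 112 genes (54.9%) both differed by over 1.5-fold and in opposite directions, compared with 18.4% of all 2353 genes, a contrast that the rule again favours. In 63 genes only the leading transcript passed 1.5-fold, and in 19 only the remaining transcripts did. In 8 genes both passed it in the direction of the leading transcript's share. In the last 2, MSTRG.19178 and MSTRG.43865, which were chosen after their values were seen, the leading transcript had the higher share in the later group while it and the remaining transcripts were both lower there by over 1.5-fold.

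**Figure D3:**
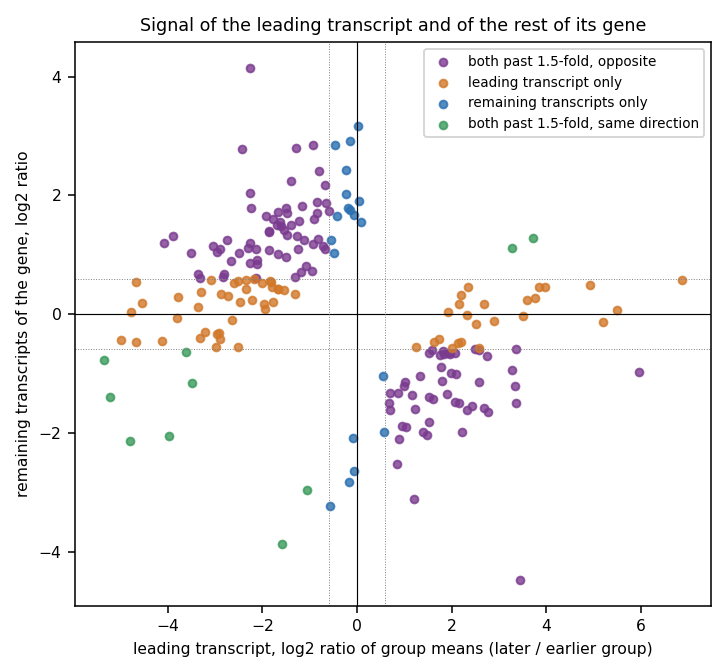
Each point is 1 of the 204 genes. The x axis is the log2 ratio of the group means of the leading transcript's values, the later group over the earlier one in the pair with the widest gap, and the y axis the same for the summed remaining transcripts. Dotted lines mark 1.5-fold. The 112 genes in purple lie in the upper left and lower right, and the 10 in green, in which both parts differed the same way, lie in the other corners.

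Gene sums differed about as much as in other genes. In the pair with the widest gap, the gene sum differed by a median of 0.52 on the log2 scale in either direction, against 0.47 in the 2149 genes left out. It differed by at least 2-fold in 49 of the 204 genes (24.0%), against 19.4% of all 2353 genes, and by less than 1.5-fold in 110 (53.9%), against 58.9% of those left out. These shares were close to the background.

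The same libraries were compared by limma on log2(gene sum + 1) over all 11875 assembled genes with a mean sum of at least 20, with Benjamini-Hochberg adjustment and a threshold of 0.05. At 1 dpl against intact, 91 of the 204 genes were called, 41 higher and 50 lower, where the test called 41.1% of the 2353 genes and 27.8% of all tested (14.4% higher and 13.4% lower). At 4 dpl against intact it was 88, 39 higher and 49 lower, where 44.3% and 32.2% were called (16.6% of all tested higher and 15.6% lower). Between 4 dpl and 1 dpl it was 58, 24 higher and 34 lower, where 27.5% and 20.1% were called (10.4% of all tested higher and 9.73% lower). In any pair, 121 of the 204 were called, against 61.5% of the 2353, and 83 were not called in any. Nothing particular to the 204 genes is read from these counts, since the rule used the same contrasts.

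The split into higher and lower depended on scaling. With median-of-ratios scaling, the median over all tested genes at 4 dpl against intact was 0.11 in place of -0.04 on the log2 scale. The called members were then 36 higher and 36 lower at 1 dpl against intact, 43 and 34 at 4 dpl against intact, and 25 and 20 between 4 dpl and 1 dpl. With each library rescaled to one total, they were 31 higher and 58 lower at 1 dpl against intact. Shares within a gene do not depend on such scaling, and 204 genes met the rule after rescaling as well.

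A test of the shares themselves had little to say on single transcripts. Over 10360 transcripts, limma on the arcsine square root of the share called 5 at 1 dpl against intact (0.0483%), 6 at 4 dpl against intact (0.0579%) and 0 between 4 dpl and 1 dpl, where 1150 had an unadjusted p under 0.05. Another test of limma, diffSplice on log2 values, called 123, 179 and 147 transcripts. The counts depended on the test. By gene, 4 of the 204 had a called transcript at 1 dpl (0.212% of the 2353 genes were called), 5 at 4 dpl against intact (0.255%) and 0 between 4 dpl and 1 dpl, which came to 6 genes in any pair (0.297% of the 2353). Without the variance trend it was 10, 34 and 0 of the 204 in the same order of pairs, where 0.467%, 1.66% and 0% of the 2353 genes were called. By diffSplice it was 40, 51 and 40, where 4.19%, 5.57% and 4.97% of 2316 genes were called. With limma on shares and the trend, the called transcripts of the 204 genes were MSTRG.43902.8, MSTRG.111365.10, MSTRG.125552.4, MSTRG.143985.4, MSTRG.47589.8 and MSTRG.79950.1, named because they were called. Since the rule had picked genes for separation in these libraries, the calls lend it no support.

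The spread of the leading share among replicates is part of what the rule used, and the order of the groups depended on intact replicate 3. The SD of the leading share had a median of 0.0399 in intact irises (n = 2), 0.0716 at 1 dpl and 0.0686 at 4 dpl (n = 3 each). In the 2149 genes left out the medians were 0.0253 in intact irises, 0.0521 at 1 dpl and 0.0393 at 4 dpl. With intact replicate 3 included, an alternative chosen after seeing the data, the intact median was 0.119 in the 204 genes and 0.0668 in those left out, above both time points in each set. No single library was farthest from its group in most genes. The library farthest from its group mean was replicate 1, 2 or 3 in 66, 65 and 73 genes at 1 dpl, and in 63, 73 and 68 genes at 4 dpl. MSTRG.70029.1, just inside the threshold, shows such spread. It had shares of 0.783 and 0.871 in intact replicates 1 and 2, 0.266, 0.583 and 0.158 at 1 dpl, and 0.694, 0.830 and 0.499 at 4 dpl. Intact replicate 3 had 0.242, within the 1 dpl range.

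Intact replicate 3 was the only library that the rule had not used, and as a single library it allows no test. In 192 of the 204 genes the leading transcript met the rule in a pair with the intact group. There, intact replicate 3 lay outside the range of the later group, on the intact side, in 156 genes (81.3%), by at least 0.2 in 75. The same held for 229 of 365 genes with a gap between 0.1 and 0.2 (62.7%) and for 675 of 1213 genes with a gap between 0 and 0.1 (55.6%). A wider gap leaves more room on the intact side, so these percentages are not like for like. Against the midpoint between the means of the intact and the later group, intact replicate 3 was on the intact side in 104 of the 192 genes (54.2%), compared with 46.3% and 51.1% in those 2 sets. By this measure it was near the background.

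The side taken by intact replicate 3 differed with the direction of the leading transcript. On a scale with 0 at the mean of intact replicates 1 and 2 and 1 at the mean of the later group, its median position was 0.14 for the 75 transcripts with a higher share after lentectomy and 0.68 for the 117 with a lower share. It was on the intact side of the midpoint in 59 of the 75 (78.7%) and 45 of the 117 (38.5%). In the genes with a gap between 0.1 and 0.2, the percentages were 63.8% and 32.2%. For example, intact replicate 3 had 0.0873 for MSTRG.125552.4, 0.0953 for MSTRG.76115.2 and 0.208 for MSTRG.47589.8, close to the intact libraries. It had 0.146 for MSTRG.20051.1 and 0.186 for MSTRG.18563.1, close to the 4 dpl libraries, but 0.689 for MSTRG.72502.2. For MSTRG.25558.1 it had 0.776, close to the 1 dpl libraries.

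**Figure D4:**
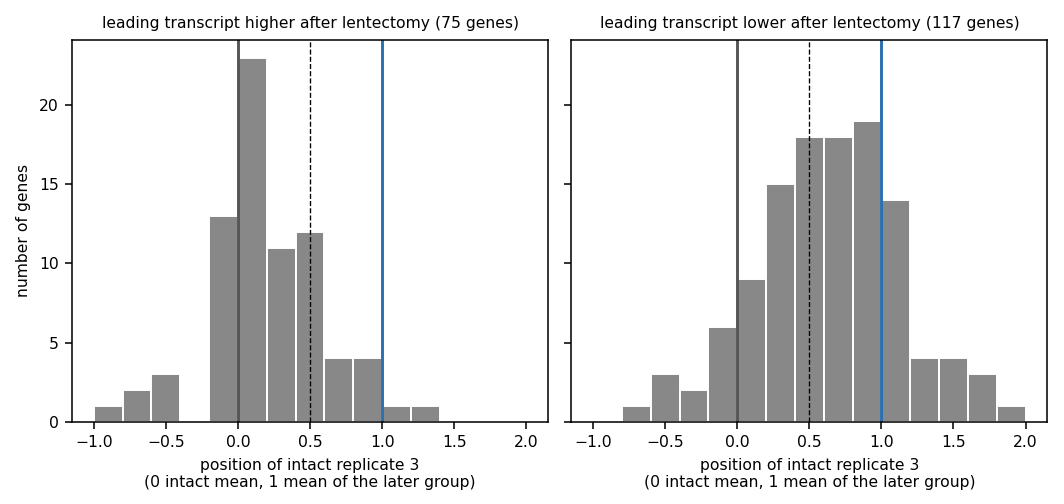
Number of genes (y axis) by the position of intact replicate 3 (x axis), with 0 (grey line) the mean of intact replicates 1 and 2, 1 (blue line) the mean of the later group and the dashed line the midpoint. The left panel holds the 75 genes whose leading transcript was higher after lentectomy, with a median of 0.14, and the right panel the 117 genes in which it was lower, with a median of 0.68. Values beyond the ends of the axis are counted in the end bars.

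Signal within a gene was spread over more transcripts in intact replicate 3. It listed a mean of 4.52 transcripts per gene at a share of at least 0.05 over the 204 genes, compared with 3.13 to 3.43 in the other 8 libraries. Its median share of the highest transcript was 0.438, compared with 0.524 to 0.579. The genes left out showed the same, with 3.48 transcripts compared with 2.62 to 2.81. Their median share of the highest transcript was 0.575, compared with 0.644 to 0.687. In 13 of the 204 genes the gene sum of intact replicate 3 was under 200. It reached 200 in 340 of the 365 genes with a gap between 0.1 and 0.2 and in 1153 of the 1213 with a smaller one. Another measure, chosen after seeing the data, took the share within the leading transcript and its counterpart alone. By it, intact replicate 3 was on the intact side in 43 of the 75 genes and 63 of the 117. It lay outside the later range in 66 and 87. In genes with a gap between 0.1 and 0.2, it was on the intact side in 49.1% of those higher and 49.0% of those lower. With a gap between 0 and 0.1, these were 47.4% and 53.2%. In both directions together, it lay outside the later range in 61.4% and 52.4% of these sets. The part of the spread over transcripts in the difference between the directions was not tested further.

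Shares were taken over assembled IDs only, and transcripts with mRNA IDs, which are not paired with assembled genes in the table, were left out. In the deposited order, mRNA IDs stood between the transcripts of 1 gene in 109 of the 204 genes (53.4%) and in 870 of the 2149 left out (40.5%). Transcript numbers were missing in 115 (56.4%) and 935 (43.5%). Of the 12 genes plotted by library, MSTRG.125552, MSTRG.13562, MSTRG.45892, MSTRG.47589 and MSTRG.127909 had mRNA IDs in between and the other 7 had none. How far shares would differ with those transcripts counted was not tested. No gene among the 204 had a neighbouring gene number that was also among them, and 12 of the 2149 left out did (0.558%). Nothing particular to the 204 is read from this.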

How the data were processed

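RNA from pooled dorsal irises of 9 libraries in 3 groups was prepared with a directional poly(A) kit. The authors trimmed reads with Trim Galore, aligned them with STAR in a second-pass mode, assembled transcripts with StringTie, used gffread to extract the sequences and Salmon, with a genome decoy, to quantify; versions and build are not given in the sources used here. The deposited values are a signal per transcript and library that the authors name average TPM, but their totals exceed those of TPM, and they hold no counts. The paper states that its displayed values were averages over inferential replicates, repeated estimates made by Salmon. No spread over these estimates is given, so the uncertainty in dividing reads among transcripts of a gene is not known. Columns were matched to libraries by name, and 0 columns of no sample were present.

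The 135198 assembled transcripts, out of 295141, were summed by gene, and shares, gaps and patterns were computed with Python 3.11.15, pandas 2.3.3 and numpy 2.4.6; plots were drawn with matplotlib 3.10.9. Tests used limma 3.58.1 (lmFit, eBayes with trend) in R 4.3.3 with the data.table package (version 1.17.8), with the 8 libraries in one model: log2(gene sum + 1) for genes with a mean sum of at least 20, and the arcsine square root of shares for transcripts with a mean share of at least 0.01 in genes of the minimum. Both were tested on simulated data. The labels number the replicates, and the methods describe each biological replicate as a pool of 4 animals. The p-values measure the spread between these pools.

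The genes and lists were chosen with earlier results of these data known. Genes named are, per pair of groups, the 4 with the widest gap among genes whose greatest gap lay in that pair, the 3 with the highest mean sum, and the 2 nearest to each side of the threshold. Alternatives concerned the minimum sum, the gap, intact replicate 3, scaling, pseudocount, filters, variance trend, groups in the model, the replicate number as a block, diffSplice, and each library left out. Planned marker genes of other cell types could not be applied, since IDs carry no names.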

Additional observations from a re-analysis of the deposited data

Results flagged for a closer look

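In 5 of the 204 genes, the libraries at 1 dpl all lay on one side of intact replicates 1 and 2. Those at 4 dpl all lay on the other side. The same held in 38 of the 2149 remaining genes that passed the minimum, so the pattern is not particular to the 204. The rule picked the 5 genes by their gap between 4 dpl and 1 dpl, so no test of that difference is independent of the choice. Limma on shares called 0 of 10360 transcripts in that pair, and so none of the 5. By diffSplice, 147 transcripts were called there, in 40 of the 204 genes and in 4.97% of 2316 genes. Since the rule used the same pair, neither count speaks for or against the 5. The mean share at 4 dpl minus that at 1 dpl was 0.6302 for MSTRG.147117.1, described above, 0.3648 for MSTRG.132726.8, 0.3533 for MSTRG.78605.1 and 0.2615 for MSTRG.94812.1, and -0.4906 for MSTRG.62006.1. MSTRG.62006.1 had shares of 0.618 and 0.458 in intact irises, 0.764, 0.879 and 0.789 at 1 dpl, and 0.0675, 0.442 and 0.451 at 4 dpl. MSTRG.132726.8 had 0.340 and 0.345 in intact irises, 0.200, 0.125 and 0.0355 at 1 dpl, and 0.444, 0.502 and 0.508 at 4 dpl. At 4 dpl, MSTRG.62006.1, MSTRG.78605.1 and MSTRG.94812.1 cleared the intact range by 0.006, 0.012 and 0.0675. At 1 dpl, MSTRG.147117.1 cleared it by 0.015. Intact replicate 3 lay outside the range of the other intact libraries for MSTRG.147117.1, MSTRG.132726.8 and MSTRG.94812.1. It had 0.111 for MSTRG.147117.1, which kept the pattern with it counted as intact. It had 0.0789 for MSTRG.132726.8, within the 1 dpl range, and 0.420 for MSTRG.94812.1, below every 1 dpl library. With it counted as intact, neither MSTRG.132726 nor MSTRG.94812 kept the pattern.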

How the results depend on the processing

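Of 447 alternative values computed, 307 were marked as the same, 140 as moved and 0 as reversed. Counts were marked by a limit of 1.5 times and differences in mean share by an SD. Percentages for intact replicate 3 were marked by a binomial interval over genes. Only a difference in mean share could be marked as reversed. For the 17 named leading transcripts, 150 of 153 differences in mean share moved by less than the larger SD of either group. Leaving out a library could not move a difference that far, nor reverse one between separate ranges. A move that large could come only from adding intact replicate 3 in a pair with intact irises. The count of 150 is therefore no measure of robustness, and it is part of the 307. The exceptions came with intact replicate 3 added, 0.70 for MSTRG.47589.8, -0.37 for MSTRG.20051.1 and -0.26 for MSTRG.32433.5, each at 4 dpl minus intact. The following counts are of genes in any pair, at 1 dpl against intact, at 4 dpl against intact and at 4 dpl against 1 dpl. A minimum gene sum of 100 gave 320 genes and 55 in the last pair; one of 500 gave 90, 53, 61 and 13, and one of 1000 gave 34, 18, 29 and 3. A gap of 0.1 gave 597, 340, 380 and 133, one of 0.3 gave 69, 32, 39 and 9, and one of 0.5 gave 8, 3, 3 and 3. A difference of group means of at least 0.2 gave 852, 538, 516 and 385, and intact replicate 3 added gave 94, 33 and 51 in the first 3. Leaving out a library gave 280 to 506, 111 to 307, 126 to 338 and 31 to 107; 467 and 506 genes met the rule without intact replicate 1 and 2, and 340 without 1 dpl replicate 1 and 312 without 4 dpl replicate 3. A missing library can only loosen the rule and an added one only tighten it.

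For gene sums in the same 3 pairs, limma called 1674, 2045 and 330 genes with no minimum mean sum and 1472, 1596 and 1075 among genes with a sum of at least 200 in each library, where the number of genes tested differs. Adding intact replicate 3 gave 1544 at 4 dpl against 1 dpl. Leaving out a library gave 1518 to 3159, 2011 to 4057 and 1453 to 1939; the lowest at 1 dpl and at 4 dpl against intact came without intact replicate 1, where the lone intact library is assumed to vary like the other groups. For shares, leaving out a library gave 0 to 4, 0 to 6 and 0 to 1. At 1 dpl against intact the calls were 3 on the share itself, 1 with a mean share of at least 0.05, 10 with none, 8 and 9 with a minimum sum of 100 and 500, 11 without the variance trend, 0 with the 2 groups alone and 3 with intact replicate 3. At 4 dpl against intact they were 60 with a minimum sum of 500, 49 without the trend and 1 with the 2 groups alone. At 4 dpl against 1 dpl they were 1 and 8 with a minimum sum of 100 and 500 and 2 with intact replicate 3. diffSplice gave 123, 179 and 147. The cause was not tested. Intact replicate 3 lay on the intact side of the midpoint in 54.2% of genes, and in 55.2% by the share within 2 transcripts. In genes with a gap between 0.1 and 0.2, the 2 measures gave 46.3% and 49.0%. With a gap between 0 and 0.1, they gave 51.1% and 50.5%.

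Neither labels nor methods pair libraries across groups by number. Deviations from group means correlated by -0.18 to 0.03 between same-numbered libraries for gene sums (7 pairs) and by -0.03 to 0.04 for shares. Between libraries of different number they correlated by -0.11 to 0.13 for gene sums (14 pairs) and by -0.04 to 0.04 for shares. Deviations within a group cancel out, so these correlations depend on each other and cannot exclude a pairing. With the replicate block, 2549, 3169 and 1799 gene sums and 0, 0 and 0 shares were called.

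The table gives no read counts per library, so counting error could not be set beside any share.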
